A study of Mus musculus with 3 samples.

Results

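Genes that are switched on by ERK signaling, or that hold it back, were followed in MC3T3-E1 cells, a line of preosteoblasts from mouse calvaria. They are the 10 genes Dusp4, Dusp5, Dusp6, Spry2, Spry4, Spred1, Etv4, Etv5, Phlda1 and Ier3, which were named as a list and looked up by symbol, and all 10 are among the 15287 genes listed in the series. The list was chosen with earlier results of these data known. Total RNA of wild type cells was sequenced in 3 libraries, with 1 library per condition. CTL cells were given no special treatment, Ti cells were exposed for 24 h to titanium (Ti) particles at 10 μg per square centimetre of dish, and Ti+Se-Met cells received the same particles together with 5 μM selenomethionine (Se-Met) for 24 h. The labels give no time in culture for CTL, so growth of the cultures and treatment cannot be told apart. Replicates were absent, so no p-value is given. In such bulk RNA, fewer cells of a kind and less RNA per cell cannot be told apart.

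ERK is the last kinase of a cascade that runs from growth factor receptors through RAS, RAF and MEK. Active ERK enters the nucleus and induces short-lived transcripts, and several of their products act back on the cascade, so that the levels of these transcripts are widely used as a readout of ERK output. The dual-specificity phosphatases DUSP4, DUSP5 and DUSP6 remove phosphate from ERK itself, Sprouty and SPRED proteins act higher up near RAS and RAF, and ETV4 and ETV5 are ETS transcription factors that carry the signal on to other genes. In osteoblasts the pathway is known for its part in growth and in the response to fibroblast growth factors.

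Levels are FPKM values, that is fragments per kilobase of transcript scaled to the fragments of the library, as the authors deposited them, so they can be compared between genes. Depth, estimated from the steps in low values, was about 14100000 fragments in CTL, 14800000 with Ti and 10450000 with Ti+Se-Met. Differences are given as folds of FPKM with a 95% exact conditional binomial interval on the estimated fragments, which covers counting error only and compares libraries. A gene was counted as 2-fold or more apart on the log2(FPKM + 1) scale, which understates the change of low genes. Of the 10 genes, 9 reached 1 FPKM in at least 1 library, Spry4 being the exception, and Dusp4 and Etv4 did so in the particle-treated libraries only. Of 8 osteoblast markers, 1 was 2-fold or more higher and 3 were lower in Ti than in CTL. The shares were 3.63% and 3.64% of all genes with at least 1 FPKM in at least 1 library. Spp1, which encodes osteopontin, was the higher one, at 1261.19, 3705.78 and 4659.49 FPKM in the CTL, Ti and Ti+Se-Met libraries. The lower ones were the collagen genes Col1a1, at 1333.19, 354.2 and 481.63 FPKM, and Col1a2, at 2688.49, 998.91 and 1256.6, and Alpl, at 1.51, 0.2 and 0.2. Runx2 was at 26.77, 17.14 and 22.97 FPKM, while Ibsp, Bglap and Sp7 stayed below 1 FPKM in every library. The part of these markers in the levels of the 10 genes was not tested. Of the macrophage markers, Cd68 was at most at 0.42 and Csf1r at most at 0.1 FPKM, whereas Lyz2 was at 26.72, 14.76 and 12.42 FPKM in the CTL, Ti and Ti+Se-Met libraries.

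In the Ti library, the ERK phosphatases and the ETS factors stood clearly above CTL, Phlda1 and Ier3 stood moderately above it, and of the inhibitors near RAS and RAF, Spry2 and Spred1 were within counting error of CTL while Spry4 was higher at a low level. In numbers, 5 of the 10 genes were 2-fold or more higher in Ti than in CTL, namely Dusp4, Dusp5, Dusp6, Etv4 and Etv5, and 0 were 2-fold or more lower. Over the 11137 genes with at least 1 FPKM in at least 1 library, 3.63% were 2-fold or more higher and 3.64% lower. The split depends on scaling, with 2.09% higher and 7.76% lower after TPM scaling (to equal sums) and 2.17% and 4.80% after upper-quartile scaling, which left 4 of the 10 genes past 2-fold each. TPM values are larger than the deposited ones and 1 was still added before log2, so the TPM counts also reflect the smaller weight of that 1. As deposited, the median difference in log2(FPKM + 1) was 0.97 for the 10 genes and 0.08 for all genes. With Ti+Se-Met, 7 of the 10 genes were 2-fold or more above CTL, since Phlda1 and Ier3 joined the others, and 0 were lower, beside 2.64% and 3.32% of all genes. The median of the deposited values was 1.24, against 0.01 for all genes. After TPM scaling 5 genes were past 2-fold, beside 2.01% higher and 7.35% lower. The plot of levels by gene shows all 30 values.

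**Figure D1:**
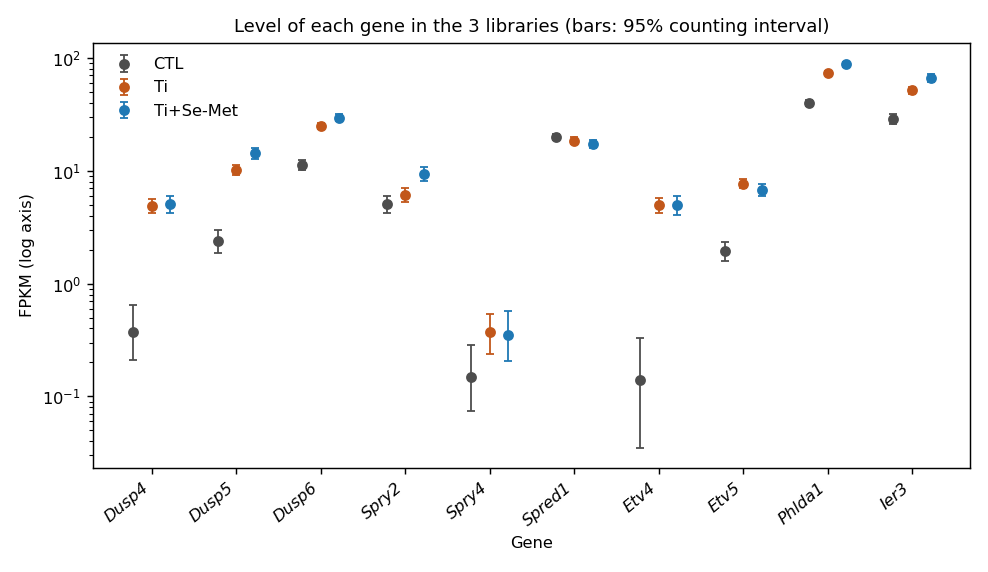
FPKM on a log axis for each of the 10 genes in the CTL, Ti and Ti+Se-Met libraries. Points are single libraries and bars are 95% counting intervals from the estimated fragments. Etv4 and Dusp4 lie below 1 FPKM in CTL and near 5 FPKM in both particle-treated libraries, while the points of Spred1 stay close together.

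The phosphatases differed most in proportion where their CTL level was lowest. Dusp4, which encodes a nuclear phosphatase of ERK and other MAP kinases, was at 0.37 FPKM in CTL cells, 4.89 with Ti and 5.07 with Ti+Se-Met. Both particle-treated libraries were far above CTL and close to each other. The fold of Dusp4 in Ti against CTL was 13.2 (interval 7.40 to 23.7), which rests on about 14 fragments in CTL and 187 in Ti. Dusp5, a nuclear phosphatase with a strong preference for ERK, was at 2.39 FPKM in CTL cells, 10.22 with Ti and 14.29 with Ti+Se-Met. Its levels thus lay in 3 steps, with Ti+Se-Met the highest. The fold of Dusp5 was 4.28 (interval 3.35 to 5.55) in Ti against CTL and 5.98 (interval 4.68 to 7.78) in Ti+Se-Met against CTL. Dusp6, the cytoplasmic ERK phosphatase, was the most abundant of the group, at 11.3 FPKM in CTL cells, 24.76 with Ti and 29.5 with Ti+Se-Met. Its fold between Ti and CTL, 2.19 (interval 1.95 to 2.46), was the smallest of the group. Dusp6 was also the gene nearest to the 2-fold limit, with a difference of 1.07 in log2(FPKM + 1), and its fold was 1.87 after TPM scaling and 1.99 after upper-quartile scaling.

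The sum of Dusp4, Dusp5 and Dusp6 was 14.06 FPKM in CTL cells, 39.87 with Ti and 48.86 with Ti+Se-Met. Dusp6 made up 80.4% of it in CTL, 62.1% with Ti and 60.4% with Ti+Se-Met. Dusp4 accounted for 2.63% in CTL and for 12.3% and 10.4% in the particle-treated libraries. Shares within a library do not depend on how libraries are scaled to each other.

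Promoter sequences are shown for Dusp5 and Dusp6, because both transcripts were higher with Ti and their windows differ in the motifs they hold. They are RefSeq sequences of GRCm38.p6, each from 250 bases before to 50 bases after the gene's start, on the gene's strand and 5′ to 3′. The Dusp5 window is chr19:53528895-53529194 on the plus strand and the Dusp6 window is chr10:99262981-99263280 on the plus strand. Capitals mark matches on either strand to the ETS motif GGAAGT and to the CArG box, the site of serum response factor.
Dusp5: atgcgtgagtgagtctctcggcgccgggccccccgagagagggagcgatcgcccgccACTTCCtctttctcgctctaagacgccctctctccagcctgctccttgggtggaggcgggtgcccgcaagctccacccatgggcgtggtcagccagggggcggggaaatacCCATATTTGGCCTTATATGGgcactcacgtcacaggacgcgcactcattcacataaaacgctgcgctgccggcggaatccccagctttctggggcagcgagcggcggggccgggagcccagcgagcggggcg
Dusp6: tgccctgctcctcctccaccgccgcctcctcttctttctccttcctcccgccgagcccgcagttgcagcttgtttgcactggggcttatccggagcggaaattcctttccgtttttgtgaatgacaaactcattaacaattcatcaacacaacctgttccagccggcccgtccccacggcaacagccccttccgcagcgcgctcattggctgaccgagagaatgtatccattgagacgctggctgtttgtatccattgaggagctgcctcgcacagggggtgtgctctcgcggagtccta
In Dusp5, 2 CArG boxes lie end to end, the first letters being 82 and 72 bases before the start, and 1 match to GGAAGT begins 193 bases before it. The Dusp6 window holds 0 matches to these motifs. Windows were found for 6 of the 10 genes, 7 windows in all, and Dusp4, Spry4, Etv4 and Phlda1 had none. At least 1 CArG box was present in 1 of the 7 windows and in 1.63% of all 32851 windows, and GGAAGT in 2 of the 7 and in 23.8% of all. The AP-1 motif TGANTCA and the CRE motif TGACGTCA, which did not overlap each other in any window, were in 0 of the 7, and in 7.81% and 1.79% of all windows. A match is a description of the letters and not a binding site.

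The inhibitors near RAS and RAF did not form a group in their levels. Spry2, a Sprouty inhibitor of receptor tyrosine kinase signaling, was at 5.03 FPKM in CTL cells, 6.1 with Ti and 9.39 with Ti+Se-Met. Its Ti level was near CTL, and Ti+Se-Met was the highest library. The fold was 1.21 in Ti against CTL, with an interval of 0.968 to 1.53 that includes equal levels, and 1.87 (interval 1.49 to 2.35) in Ti+Se-Met against CTL. Spry4, a further Sprouty gene, was at 0.15 FPKM in CTL cells, 0.37 with Ti and 0.35 with Ti+Se-Met, on about 10, 25 and 17 fragments. Ti was 2.47 times CTL (interval 1.10 to 5.56), and the interval in Ti+Se-Met against CTL, 0.992 to 5.61, included equal levels. The calls of Spry4 turn on scaling: with TPM the interval in Ti against CTL also included equal levels, and with median-of-ratios scaling that in Ti+Se-Met against CTL no longer did.

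Spred1, which encodes a membrane-bound inhibitor that brings the RAS-inactivating protein neurofibromin to RAS, was the exception in direction. It was at 20 FPKM in CTL cells, 18.53 with Ti and 17.23 with Ti+Se-Met, so CTL was the highest library. The fold of Spred1 was 0.926 in Ti against CTL (interval 0.847 to 1.01) and 0.862 in Ti+Se-Met against CTL (interval 0.779 to 0.952). With TPM, upper-quartile or median-of-ratios scaling (equal median ratio to the genes' geometric means), taken as exact, the interval in Ti against CTL lay below 1 as well. The Spred1 window is shown because its direction differed from that of the other genes. It is chr2:117120821-117121120 on the plus strand and holds 0 matches to the motifs above. The windows of Dusp6 and Ier3, which were above CTL with Ti, also hold 0 matches.
Spred1: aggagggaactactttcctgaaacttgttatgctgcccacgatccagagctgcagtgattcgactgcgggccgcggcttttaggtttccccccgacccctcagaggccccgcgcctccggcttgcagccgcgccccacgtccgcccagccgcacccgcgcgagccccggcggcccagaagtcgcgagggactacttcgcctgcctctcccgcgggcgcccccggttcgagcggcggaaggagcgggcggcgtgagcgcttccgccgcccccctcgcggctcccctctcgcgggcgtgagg

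Etv4 had the largest fold of the 10 genes. This PEA3 factor of the ETS family was at 0.14 FPKM in CTL cells, 4.93 with Ti and 4.96 with Ti+Se-Met. The particle-treated libraries were alike, and CTL rested on about 4 fragments, against 162 in Ti. The fold in Ti against CTL was 35.2, with a wide interval of 14.8 to 143. Ranked by the difference in log2(FPKM + 1), Etv4 was the 12th highest of the 11137 genes in Ti against CTL, Dusp4 the 23rd, Dusp5 the 44th and Etv5 the 63rd. Etv4 and Dusp4 are among the 11137 genes only through the particle-treated libraries, where they are high, so their ranks are a description only. Etv5, a close relative of Etv4, was at 1.93 FPKM in CTL cells, 7.68 with Ti and 6.79 with Ti+Se-Met. Its fold was 3.98 (interval 3.21 to 4.98) in Ti against CTL and 3.52 (interval 2.79 to 4.45) in Ti+Se-Met against CTL. Etv5 was the only gene of the 5 past 2-fold in Ti whose FPKM was lower in Ti+Se-Met than in Ti, and the interval of that fold, 0.755 to 1.03, included equal levels.

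The third PEA3 gene, Etv1, was at 6.34, 5.87 and 6.49 FPKM in the CTL, Ti and Ti+Se-Met libraries, with Ti at 0.926 times CTL (interval 0.812 to 1.06). Etv1 therefore made up 75.4% of the summed PEA3 level in CTL, but 31.8% with Ti and 35.6% with Ti+Se-Met. Etv4 went from 1.66% of the sum in CTL to 26.7% with Ti and 27.2% with Ti+Se-Met, and Etv5 from 22.9% to 41.6% and 37.2%. RefSeq gives 2 starts for Etv5, and the window of the downstream one, chr16:22438319-22438618 on the minus strand, holds GGAAGT 2 times, in capitals here, 217 bases before the start and from base 3 after it.
Etv5: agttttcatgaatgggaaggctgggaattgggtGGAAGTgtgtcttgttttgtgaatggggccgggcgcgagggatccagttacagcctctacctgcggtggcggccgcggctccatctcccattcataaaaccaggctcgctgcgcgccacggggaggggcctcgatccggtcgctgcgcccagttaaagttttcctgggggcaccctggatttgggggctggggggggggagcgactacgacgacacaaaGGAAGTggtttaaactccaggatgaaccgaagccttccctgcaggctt
The window of the upstream start, chr16:22439521-22439820, holds 0 matches.

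**Figure D2:**
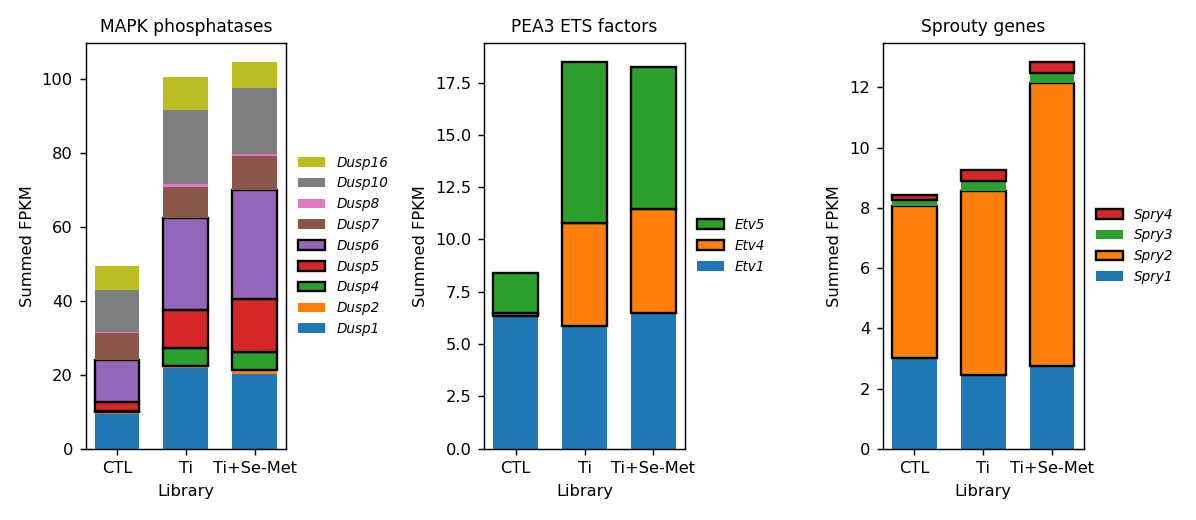
Summed FPKM of MAPK phosphatases, PEA3 ETS factors and Sprouty genes in each library, stacked by gene, with black outlines around genes of the list of 10. The PEA3 bar is mostly Etv1 in CTL and is shared by Etv1, Etv4 and Etv5 in Ti and Ti+Se-Met.

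Phlda1 and Ier3 were the most abundant of the 10 genes in every library. Phlda1, a pleckstrin homology-like domain protein and a common marker of ERK output, was at 39.61 FPKM in CTL cells, 73.51 with Ti and 87.74 with Ti+Se-Met. Ier3, an immediate early gene linked to cell survival, which NF-κB also induces, was at 28.76 FPKM in CTL cells, 51.87 with Ti and 66.23 with Ti+Se-Met. Both stepped up from CTL to Ti and again to Ti+Se-Met. In Ti against CTL the fold was 1.86 (interval 1.72 to 2.0) for Phlda1 and 1.80 (interval 1.59 to 2.04) for Ier3. In Ti+Se-Met against CTL it was 2.22 (interval 2.05 to 2.40) for Phlda1 and 2.30 (interval 2.03 to 2.61) for Ier3. They were the genes just outside the 2-fold limit in Ti, at 0.88 and 0.83 in log2(FPKM + 1).

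The order of the 10 genes changed mainly in the middle. In CTL it ran Phlda1, Ier3, Spred1, Dusp6, Spry2, Dusp5, Etv5, Dusp4, Spry4 and Etv4, and counting error did not separate Dusp5 from Etv5 or Spry4 from Etv4. In Ti, Dusp6 stood above Spred1, Dusp5 and Etv5 stood above Spry2, and Etv4 and Dusp4 were level at 4.93 and 4.89 FPKM. Neither Etv4 from Dusp4 nor Spry2 from Etv4 was separated there. In Ti+Se-Met the order was Phlda1, Ier3, Dusp6, Spred1, Dusp5, Spry2, Etv5, Dusp4, Etv4 and Spry4, and Dusp4 and Etv4 were the 1 pair of neighbours not separated.

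The design asks further whether Se-Met changed the levels in the presence of particles. In Ti+Se-Met against Ti, 0 of the 10 genes were 2-fold or more higher and 0 lower, beside 0.162% and 0.0629% of all genes. Smaller differences were upward for part of the genes. Spry2 had the largest fold, 1.54 (interval 1.25 to 1.90), followed by Dusp5 with 1.40 (interval 1.2 to 1.63) and Ier3 with 1.28 (interval 1.15 to 1.42). Phlda1 and Dusp6 followed at 1.19 each, with intervals of 1.12 to 1.28 and 1.08 to 1.31. The levels of Dusp4, Etv4 and Spry4 were within counting error of Ti, with folds of 1.04, 1.01 and 0.946, and the interval of Spry4, 0.488 to 1.86, was the widest. The interval lay above 1 for 5 of the 10 genes and below 1 for 0, while it did so for 15.7% and 29.2% of the 10918 genes that reached 1 FPKM in at least 1 library and have a known length. The same counts, 5 and 0, were found with upper-quartile, median-of-ratios and TPM scaling. The shares of 15.7% and 29.2% are for the deposited values, and shares under these scalings are not given here. Against CTL, the interval lay above 1 for 8 genes and below 1 for 0 in Ti (42.9% and 32.0% of these genes), and above 1 for 8 and below 1 for 1, Spred1, in Ti+Se-Met (35.9% and 33.4%). The particle comparisons share the CTL library, and the Ti library enters 2 of the 3 comparisons.

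**Figure D3:**
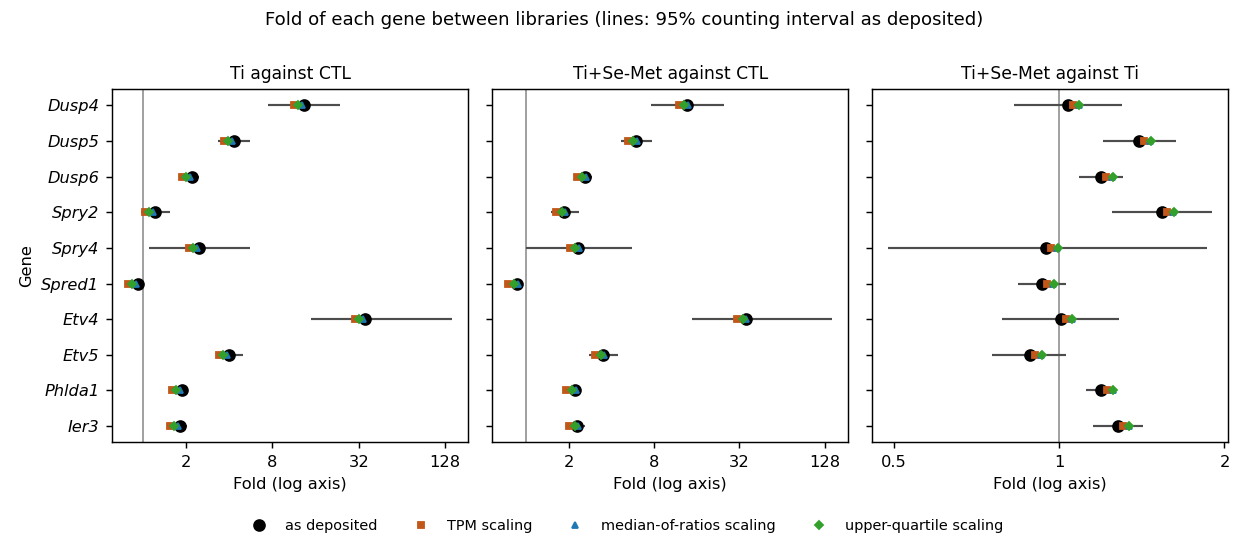
Fold of FPKM for each of the 10 genes in the 3 comparisons, on log axes. Lines are 95% counting intervals as deposited, and markers give the fold as deposited and with 3 other scalings of the libraries. In Ti+Se-Met against Ti, the lines of Dusp5, Dusp6, Spry2, Phlda1 and Ier3 lie to the right of 1 and the other 5 cross it.

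Relatives of the 10 genes were looked at in the same way. Of 17 analysed, 3 were 2-fold or more higher in Ti than in CTL and 0 lower, beside 3.63% and 3.64% of all genes. The median difference was 0.36 in log2(FPKM + 1), against 0.08 for all genes. The 3 were Dusp1, an immediate early phosphatase that acts on p38 and JNK as well as ERK, Ier2 and Phlda3. Dusp1 was at 9.51 FPKM in CTL cells, 21.81 with Ti and 20.08 with Ti+Se-Met, Ier2 at 6.28, 17.07 and 15.85, and Phlda3, a target of p53, at 138.91, 292.65 and 217.86. Dusp7, the cytoplasmic ERK phosphatase most like Dusp6, was at 7.27, 8.62 and 9.14 FPKM, a fold of 1.19 in Ti against CTL (interval 1.02 to 1.38). Among phosphatases directed mainly at p38 and JNK, Dusp10 was at 11.11, 19.81 and 17.8 FPKM, Dusp16 at 6.71, 9.03 and 7, and Dusp8 stayed below 1 FPKM. Over 9 MAPK phosphatases, Dusp4, Dusp5 and Dusp6 included, the sum was 49.52 FPKM in CTL cells, 100.52 with Ti and 104.54 with Ti+Se-Met. The share of Dusp5 in this sum was 4.83% in CTL, 10.2% with Ti and 13.7% with Ti+Se-Met, and that of Dusp7 was 14.7%, 8.58% and 8.74%. Spry1 was at 3.02, 2.45 and 2.74 FPKM and Spred2 at 15.99, 20.73 and 21.51. Spred3 was lower in Ti than in CTL, at 5.01, 3.05 and 4.03 FPKM. Dusp3 was at 6.85, 10.69 and 9.5 FPKM, Dusp14 at 6.99, 9.46 and 7.8, and Ier5 at 13.36, 21.59 and 18.97. Dusp2 was at 0.33, 0.59 and 1.14 FPKM, and Spry3 and Phlda2 stayed below 1 FPKM.

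Other outputs of the pathway were taken from a list that shares 0 genes with the 10. That list, like the 10, was chosen with earlier results of these data known, so its values are no independent test. Of 17 genes, 7 were 2-fold or more higher in Ti than in CTL and 0 lower, beside 3.63% and 3.64% of all genes, and the median difference was 0.86 in log2(FPKM + 1), against 0.08. By any amount, 15 were higher and 2, Egr2 and Epha4, were lower. The interval lay above 1 for 15 and below 1 for 1, beside 42.9% and 32.0% of all genes with a known length. The 7 were Fosl1, Junb, Maff, Fos, Egr1, Plaur and Myc, most of them transcription factors. Junb was at 9.12 FPKM in CTL cells, 50.44 with Ti and 49.13 with Ti+Se-Met, Egr1 at 6.44, 20.7 and 23.16, and Maff at 1.83, 10.05 and 9.13. Plaur, the urokinase receptor, was at 5.95, 19.06 and 22.25 FPKM. Ccnd1, the cyclin that links the pathway to the cell cycle, was at 250.25, 263.31 and 264.82 FPKM, and Epha4 was at 0.64, 0.36 and 0.35. Between Ti+Se-Met and Ti, 0 of the 17 were 2-fold apart and the median difference was -0.01.

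In the cascade itself, of 22 genes from adaptors to ERK and its substrate kinases, 0 were 2-fold apart in RNA level in any comparison. Over all genes, 3.63% were 2-fold or more higher and 3.64% lower in Ti against CTL, so 0 of 22 is near these shares. In the same comparison, the interval lay above 1 for 7 of the 22 and below 1 for 8. The shares of genes with a known length were 42.9% and 32.0%. The median difference in Ti against CTL was -0.07 in log2(FPKM + 1), against 0.08 for all genes. The widest differences in Ti against CTL were in Braf, at 14.19 FPKM in CTL cells, 8.28 with Ti and 9.66 with Ti+Se-Met, and Map2k2, which encodes MEK2, at 55.53, 87.64 and 78.69. Among 11 receptors, 1 was 2-fold or more lower in Ti and 0 were higher, beside 3.64% and 3.63% of all genes. The lower one was Fgfr2, at 35.44 FPKM in CTL cells, 14.7 with Ti and 15.97 with Ti+Se-Met. Egfr was at 38.69, 19.24 and 20.35 FPKM, just inside the limit, while Fgfr1 was at 108.9, 185.33 and 198.21. Of 16 ligands, 2 were 2-fold or more higher in Ti and 0 lower, beside 3.63% and 3.64% of all genes. They were Vegfa at 31.22, 94.37 and 79.08 FPKM and the EGF receptor ligand Ereg at 0.94, 2.99 and 3.71. By any amount, 8 ligands were higher in Ti than in CTL and 8 lower. The interval lay above 1 for 7 ligands and below 1 for 4. Areg, a further ligand of this receptor, passed the limit in Ti+Se-Met against CTL, with 0.07, 0.64 and 1.15 FPKM on about 1 fragment in CTL.

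**Figure D4:**
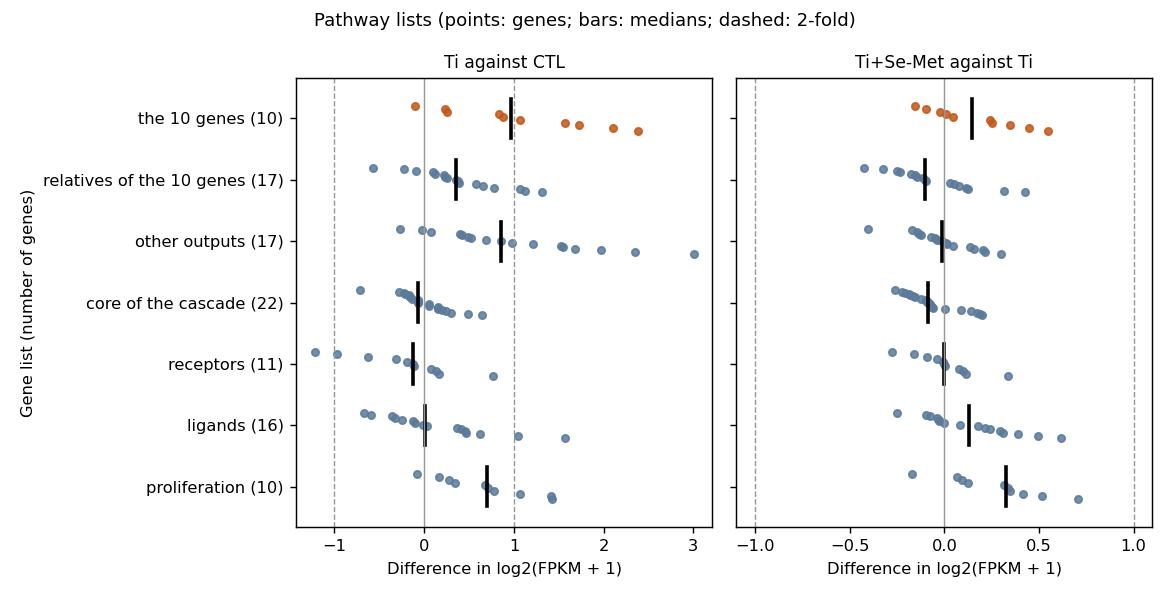
Difference in log2(FPKM + 1) for each gene of 7 lists, for Ti relative to CTL and for Ti+Se-Met relative to Ti. Points are genes, bars are medians and dashed lines mark 2-fold. In Ti against CTL the medians of the 10 genes and of the other outputs are 0.97 and 0.86, and those of the cascade, the receptors and the ligands are -0.07, -0.13 and 0.01.

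Most proliferation genes were higher with Ti too, 9 of 10, the exception being Mki67 at 17.33, 16.29 and 27.18 FPKM. In Ti against CTL their median difference was 0.69, against 0.08 for all genes. The interval lay above 1 for 9 and below 1 for 1, beside 42.9% and 32.0% of genes with a known length. Of the 10 proliferation genes, 3 were 2-fold or more higher in Ti than in CTL, namely Aurka, Mcm2 and Mcm5, beside 3.63% of all genes. In Ti+Se-Met against CTL, 4 of them were, with Ccnb1 added, beside 2.64%. Their summed level was 209.66 FPKM in CTL cells, 343.73 with Ti and 399.22 with Ti+Se-Met, and the median difference in Ti+Se-Met against Ti was 0.33 in log2(FPKM + 1), against -0.06 for all genes. The part of growth in the levels of the 10 genes was not tested. Outside the 10, the 5 of 8722 genes with a mean of at least 5 FPKM whose differences over the 3 libraries lay nearest to the medians of the 10 were Bin3, Birc5, Tubb6, Erf and Nek2. Bin3 was at 11.59, 23.71 and 28.52 FPKM, Birc5 at 18.6, 37.86 and 46.25, and Tubb6 at 31.81, 61.07 and 76.57. Erf was at 7.9, 16.34 and 19.26 FPKM and Nek2 at 5.43, 11.2 and 14.71.

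The GO terms in the deposited table describe the 10 genes as follows. Inactivation of MAPK activity is given for 4 of them, Dusp4, Dusp5, Dusp6 and Spred1, and for 0.108% of the 11137 genes. The KEGG pathway for MAPK signaling is given for the 3 phosphatases. In the annotation GENCODE M21, exons of 2 of the 10 genes overlap a gene on the opposite strand, AC137853.2 for Dusp5 and Gm28592 for Phlda1, and since no strand setting is stated, reads of such pairs cannot be told apart.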

How the data were processed

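MC3T3-E1 cells of 3 conditions (CTL, Ti, Ti+Se-Met) were sequenced, 1 library each. After trimming of adapters and poor-quality reads, the authors used HISAT2 for alignment to mouse and HTSeq for counting, and the deposited FPKM values have 2 decimals and no stated scaling between libraries. The submitters' processing notes name StringTie and mm9 as well, so the step that made FPKM is uncertain, and no coordinates were taken from the files. The library kit does not mark strand as far as the labels state. Each column was matched to a library by name, and 0 columns were left unmatched.

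For all 15287 genes, folds and differences in log2(FPKM + 1) were obtained in Python 3.11.15 (pandas 2.3.3, numpy 2.4.6, scipy 1.17.1). Count models were not applied to FPKM, and 1 library per condition allows no test. Genes with at least 1 FPKM in at least 1 library (11137) were the background, and counts and medians over the 10 genes include all 10. Depth was estimated from the steps that 1 fragment makes in low values of 453 single-transcript genes (350 to 1000 bases long, less 150 bases) and GENCODE M21 lengths (median over the matched RefSeq transcripts). Lengths were found for 95.3% of genes. In CTL 60.0% of 120 low values lay on a step, against 17.9% by chance, 52.1% of 96 in Ti and 48.4% of 93 in Ti+Se-Met, so depth is approximate. Subtracting 100 or 200 bases gave 12850000 to 15350000, 13800000 to 15800000 and 9900000 to 11150000 fragments. The steps were tested on simulated data. These were made with the same lengths, less 150 bases, that the estimate assumes, so errors in those lengths were not tested.

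Named genes are the 10 genes, their direct relatives, list genes past 2-fold in any comparison, and the 5 genes nearest in pattern. Egfr, Fgfr1, Braf, Map2k2, Ccnd1, Epha4, Egr2 and Srf were chosen after their values were seen. The members and lists were chosen with earlier results of these data known. Dusp9, Kit, Tgfa, Ptprc, Adgre1, Plin1, Acan, Cdh5 and Kdr were not analysed here. Of the other marker lists, Adipoq, Fabp4, Col2a1 and Pecam1 stayed below 1 FPKM, and Sox9 was at 24.94 to 39.29 FPKM. Other settings tried were no filter, a mean of at least 5 FPKM, pseudocounts of 0.1 and 5, thresholds of 1.5-fold and 4-fold, and upper-quartile, median-of-ratios and TPM scaling.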

Additional observations from a re-analysis of the deposited data

How the results depend on the processing

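No paired analysis was possible because CTL, Ti and Ti+Se-Met had 1 library each, and none could be left out. In Ti against CTL, the 5 genes past 2-fold became 1 with a pseudocount of 5 (Dusp5), 3 for genes with a mean of at least 5 FPKM and 2 at 4-fold. In Ti+Se-Met against CTL, 7 became 4 with a pseudocount of 5 and 3 at 4-fold. With the limit set at 1.5-fold, 7 genes passed for Ti and 8 for Ti+Se-Met, each relative to CTL. A larger pseudocount, a higher threshold and the filter each lower the number by construction, and a lower threshold raises it. Shares of all genes under these pseudocounts, thresholds and filters are not given here. The counts alone therefore cannot show whether the 10 genes still stood apart from all genes under those settings. The median difference moved from 0.97 to 0.77 with TPM in Ti against CTL and from 1.24 to 0.93 with a pseudocount of 5 in Ti+Se-Met against CTL. TPM and upper-quartile scaling left 4 genes past 2-fold in Ti against CTL, and TPM left 5 in Ti+Se-Met against CTL. In Ti+Se-Met against Ti the number was 0 under every alternative. TPM, with the pseudocount kept at 1 on its larger values, shifts the median of all genes in Ti against CTL from 0.08 to -0.14. No direction of a gene whose interval excluded equal levels was reversed. With other depths, 1 of 60 intervals changed sides, that of Spry4 in Ti+Se-Met against CTL. Counting intervals under other scalings were added after the data were seen. Depth limits Spry4 in every library, and Etv4 and Dusp4 in CTL.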

Other observations

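Among the 32851 RefSeq promoter windows of GRCm38.p6, 6 (0.0183%) held 2 or more CArG boxes. Dusp5 was 1 of the 5 genes they belong to, and Srf, which encodes serum response factor itself, was another. Srf stood at 20.98 FPKM in CTL cells, 18.83 with Ti and 30.63 with Ti+Se-Met. No counting interval was made for Srf. Srf and Dusp5 were both highest in Ti+Se-Met, and other genes of the list, among them Dusp6, Spry2 and Ier3, were highest there too. A link between Srf and Dusp5 was not tested. The other genes were Ceacam11, Gm33934 and Gm39572, of which the last was at 0.06 FPKM in CTL and listed at 0 in Ti and Ti+Se-Met. The pair of boxes was noticed in the Dusp5 window and then looked for in all windows.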
